A study of Mus musculus with 20 samples.

Results

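Of 68261 annotated mouse enhancers in the deposited enhancer table, 6953 (10.2%) held a mean of at least 10 reads over the 3 wild-type libraries that the table covers, and these 6953 transcribed enhancers are described here. The wild-type counts alone chose them, so their wild-type level, and every difference from wild type, is a description. Total RNA was sequenced from SIMS cells, an epithelial line of the mouse salivary gland, and the series asked how transcription from regulatory features differs when Zcchc8 is knocked out. The groups were unedited wild type (3 libraries), a Btbd7 KO line that served as negative control (4 libraries), and Zcchc8 KO clones 1, 2 and 3 (4 libraries each). Each knockout was made by CRISPR/Cas9, and all groups grew in DMEM with 10% fetal bovine serum. The labels name 1 Btbd7 KO line and 3 Zcchc8 KO clones, and they do not say whether libraries of 1 line came from separate cultures. The p-values therefore measure only the spread between libraries of a line, which may be technical. A replicate 1 of wild type is not analysed here.

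Active enhancers are transcribed by RNA polymerase II, often in both directions, into short, mostly unspliced enhancer RNAs that are degraded in the nucleus soon after they are made. ZCCHC8 holds together the NEXT complex (nuclear exosome targeting): with the RNA-binding protein RBM7 and the helicase MTREX it hands such transcripts, together with promoter upstream transcripts and other unprocessed RNAs, to the RNA exosome, the nuclease complex that digests them from the 3′ end. BTBD7 is a regulator of epithelial branching in the salivary gland and is no part of that machinery. The enhancers carry Ensembl regulatory identifiers. Their coordinates, lengths and sequences are not given in the sources used here, nor are the genome build, the counting tool, the strand setting and the rule for reads shared between features. Whether a read in an enhancer came from an enhancer RNA or from a gene transcript that runs across it cannot be told apart, and levels of different enhancers are not per length.

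The libraries held 6833258 to 17771804 reads in genes and 278623 to 712101 in enhancers, with clone 1 the shallowest line (6833258 to 7683444 gene reads per library). Reads carried no molecular identifiers, so a counting limit covers counting error only. Levels are given as CPM, the count divided by the library's TMM-scaled gene total and multiplied by 1000000, and a difference is a log2 fold change from edgeR's quasi-likelihood test with its standard error. An enhancer is called where the Benjamini-Hochberg adjusted p over all 12596 enhancers tested was under 0.05. The Btbd7 mRNA level was 99.1 ± 3.37 CPM (SD, n = 4) in Btbd7 KO, below that of wild type at 199 ± 6.44 CPM (SD, n = 3; difference -1.0 on the log2 scale, edgeR adjusted p = 2.59e-17). Zcchc8 mRNA lay at 65.2 ± 3.40 CPM in wild type, 62.2 ± 3.95 in Btbd7 KO, 60.8 ± 4.24 in clone 1, 23.5 ± 1.43 in clone 2 and 54.5 ± 5.02 in clone 3. Against wild type it was lower in clone 2 by edgeR's test (-1.48 on the log2 scale, adjusted p = 6.4e-18) and in clone 3 (-0.26, adjusted p = 0.0118), and the value in clone 1 did not pass (-0.10, adjusted p = 0.373). Reads at the edited sites are not analysed here, so an mRNA level does not check the edit of a clone. Of 10 salivary epithelial markers, 9 exceeded 100 CPM in every library and Krt5 stayed at or below 0.526 CPM. Among immune markers Cd68, a macrophage marker, lay at 5.49 CPM in wild type, 5.88 in Btbd7 KO, 11.3 in clone 1, 9.39 in clone 2 and 5.53 in clone 3. It was higher than in wild type in clone 1 (1.05 on the log2 scale, edgeR adjusted p = 3.49e-05) and clone 2 (0.78, adjusted p = 0.00134), while Ptprc and Cd3e were near 0 (at most 0.690 and 0.679 CPM). The summed endothelial level was at most 1.16 CPM and Sox10, a marker of glia, was at 0. The summed level of the fibroblast markers ran from 10.2 to 35.2 CPM and was lowest in clone 1, at 10.2 to 13.9 CPM. Its members were not alike. In the mean of the clones against Btbd7 KO, Col3a1 (-5.06, edgeR adjusted p = 5.33e-17), Col1a2 (-1.22, 0.00655) and Pdgfra (-3.44, 0.00141) were lower. Col1a1 was not called there (0.01, adjusted p = 0.974), and against wild type it was higher in clones 2 and 3 (0.99 and 0.89). The summed level of the 10 epithelial markers was 4603 to 5613 CPM in wild type and 4869 to 4990 in Btbd7 KO, against 3587 to 4275, 3976 to 4477 and 3419 to 3933 in clones 1, 2 and 3. It was thus lower in every Zcchc8 KO library than in the 7 control libraries. Single markers went both ways: in the mean of the clones against Btbd7 KO, 6 of the 9 tested fell and 2 rose, among them Epcam (0.25, edgeR adjusted p = 5.34e-07), while Cdh1 did not pass the test (-0.02, adjusted p = 0.736). The part of these markers in the enhancer differences below was not tested.

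Most of the 6953 enhancers were transcribed at a low level, and a small number carried most of the reads. The median wild-type mean was 29.7 counts (1.84 CPM), the quartiles were 16.3 and 74.3 counts, and the highest was 6170 counts (385 CPM). The 10 highest enhancers took 6.79% of all reads in the 6953, the 100 highest took 22.9%, and 524 enhancers sufficed for 50% of the reads. In any 1 library, 6735 to 6949 of the 6953 held at least 1 read. The median coefficient of variation between libraries of a group was 29.2% in wild type, 29.0% in Btbd7 KO, 33.3% in clone 1, 28.4% in clone 2 and 27.2% in clone 3. In no pair of replicates were the counts within counting noise of each other (chi-square over its degrees of freedom 2.09 to 6.04), and each library was kept as its own.

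The summed level of the 6953 enhancers overlapped between the lines. Per 1000 scaled gene reads, they held 37.8 ± 0.442 reads (SD, n = 3) in wild type, 36.9 ± 0.803 (n = 4) in Btbd7 KO, 37.3 ± 0.994 in clone 1, 37.6 ± 0.800 in clone 2 and 37.7 ± 0.643 in clone 3. The ranges of all 5 groups overlapped. The median enhancer, by contrast, stood at 1.87 ± 0.112 CPM in wild type and 1.71 ± 0.107 in Btbd7 KO, and at 2.06 ± 0.0942, 2.10 ± 0.105 and 2.14 ± 0.136 in clones 1, 2 and 3. Every library of the clones lay above every Btbd7 KO library in this median, the closest pair being 1.97 CPM in clone 1 and 1.86 CPM in Btbd7 KO, whereas the wild-type libraries, at 1.78 to 1.99 CPM, overlapped both. The share of all enhancer reads that fell in the 6953 was 93.9% to 94.5% in the Btbd7 KO libraries and 90.3% to 91.7% in the 12 Zcchc8 KO libraries, with no overlap. The other 61308 enhancers held 2.15 to 2.46 reads per 1000 scaled gene reads in Btbd7 KO and 3.37 to 4.17 in the Zcchc8 KO libraries. In bulk RNA, fewer cells that transcribe an enhancer and less RNA per cell cannot be told apart.

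**Figure D1:**
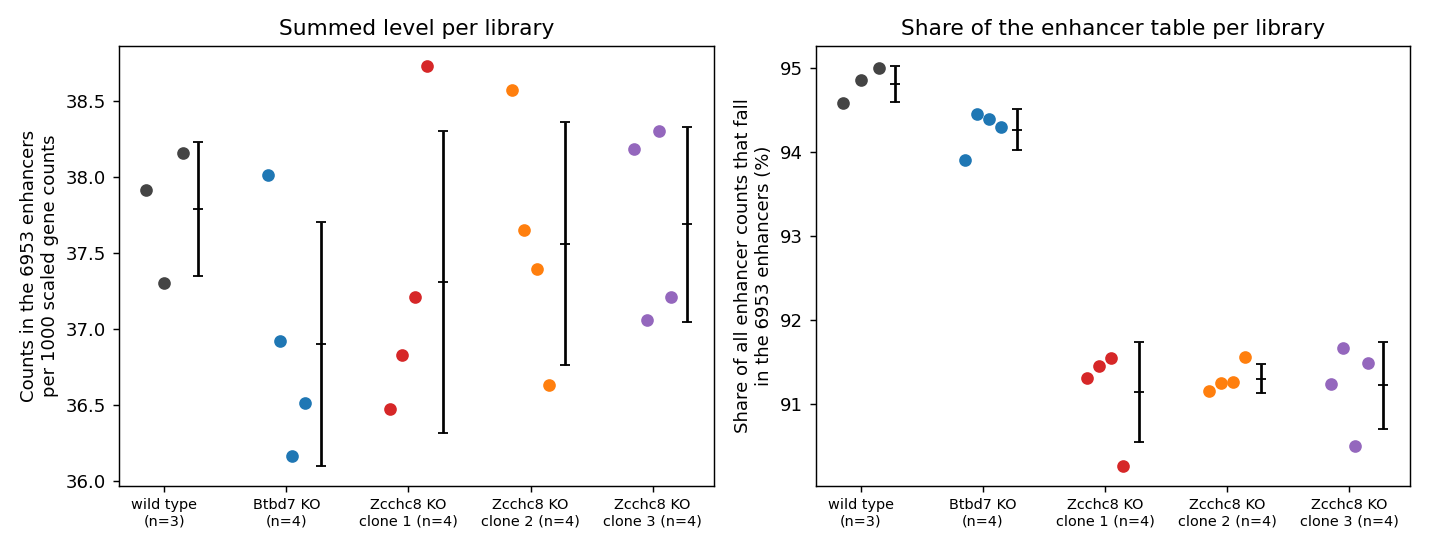
Left, reads in the 6953 enhancers per 1000 TMM-scaled gene reads; right, the share of all enhancer reads that falls in them, in percent; each point is 1 library, the bars are mean ± SD of a group, and neither axis starts at 0. The groups overlap on the left, whereas on the right the 12 Zcchc8 KO libraries lie at 90.3% to 91.7% and the 4 Btbd7 KO libraries at 93.9% to 94.5%.

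Against Btbd7 KO, which the choice of enhancers did not use, 712 of the 6953 enhancers rose and 325 fell in the mean of the 3 Zcchc8 KO clones, a balance that turned to 422 and 801 when scaling was done within the enhancer table. The rises were large and came from enhancers of ordinary level: their median log2 fold change was 1.13, 104 of them exceeded 2 and 31 exceeded 3, and their median level in Btbd7 KO was 1.60 CPM, beside 1.71 CPM over the 6953. The falls were small and came from strongly transcribed enhancers: their median log2 fold change was -0.57, 4 lay below -2, and their median level in Btbd7 KO was 14.3 CPM. The smallest change called was 0.90 at a wild-type mean of 10 to under 20 counts and 0.18 at 200 or more. Small falls in weak enhancers were thus not callable. Btbd7 KO is also part of the contrast that made the calls, so these sizes and levels are a description. In summed level the 712 gained 2663 CPM and the level of the 325 dropped by 2595 CPM (mean of the clones minus Btbd7 KO, called enhancers with gene-table scaling).

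The 712 were 10.2% of the 6953, against 9.76% called higher among all 12596 enhancers tested, so the share of rises was near the background. The 325 were 4.67%, against 2.73% called lower among all tested. The median log2 fold change was 0.13 over the 6953 and 0.22 over all tested. Of the 712, 416 rose more than 2-fold, and of the 325, 39 fell more than 2-fold. By clone, the median log2 fold changes were 1.16, 1.09 and 1.13 in clones 1, 2 and 3 for the rises and -0.62, -0.52 and -0.47 for the falls, a description, since these enhancers were called on the mean of the same clones against the same 4 Btbd7 KO libraries. By level alone, all 12 Zcchc8 KO libraries lay above all 4 Btbd7 KO libraries in 256 enhancers (3.68%, against 3.84% of all tested) and below them in 112 (1.61%, against 0.969%). When the wild-type libraries were added to the controls, 128 enhancers lay above all 7 (1.84%, against 2.33%) and 29 below (0.417%, against 0.23%).

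The balance of rises and falls depended on the scaling. With scaling within the enhancer table instead of by genes, the share of calls that were higher went from 68.7% to 34.5% and the median log2 fold change from 0.13 to -0.09; without TMM factors it was 876 higher and 238 lower, a share of 78.6%. With the cell line as the replicate (3 Zcchc8 KO lines against both control lines, wild type included), edgeR called 264 higher (3.8%, against 5.84% of all tested) and 52 lower (0.748%, against 0.453%). That test holds the wild-type libraries whose counts chose the enhancers, so its counts are a description.

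**Figure D2:**
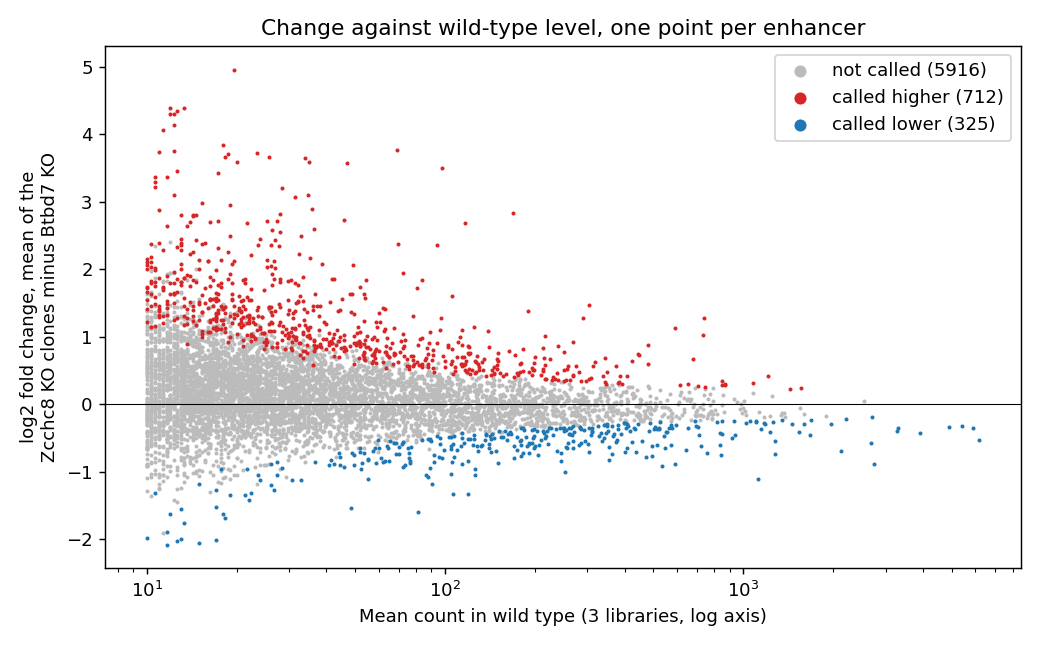
Log2 fold change of the mean of the Zcchc8 KO clones against Btbd7 KO (gene-table scaling), plotted over the mean count in wild type on a log axis, 1 point for each of the 6953 enhancers. The 712 called higher reach 4.96 and are largest at low counts, and the 325 called lower line the bottom edge at high counts; with scaling within the enhancer table the calls were 422 higher and 801 lower.

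The change ran with the wild-type level. Among the 2338 enhancers with a wild-type mean of 10 to under 20 counts, 205 (8.77%) rose and 18 (0.77%) fell against Btbd7 KO, and the median log2 fold change was 0.28. Among the 2261 with 20 to under 50 counts, 239 (10.6%) rose and 26 (1.15%) fell, with a median of 0.20. Among the 1693 with 50 to under 200 counts, 199 (11.8%) rose and 125 (7.38%) fell, with a median of 0.03. In the highest band, 200 counts or more, 69 of 661 (10.4%) rose and 156 (23.6%) fell, and the median was -0.10. The share of rises was therefore much alike in the 4 bands while that of falls grew with the level. Precision differed between the bands: the median standard error was 0.47, 0.32, 0.19 and 0.11 from the lowest band to the highest, and the smallest change called was 0.90, 0.59, 0.36 and 0.18. Falls as small as most of those in the highest band were thus not callable in the lowest. Another scaling moves all enhancers by nearly the same amount: the medians were 0.35, 0.26, 0.10 and -0.04 without TMM factors, and 0.07, -0.02, -0.19 and -0.32 with scaling within the table, where all but the lowest band had a median below 0. By single clone, the medians of the lowest band were 0.26, 0.32 and 0.35 in clones 1, 2 and 3, and those of the highest band -0.09, -0.09 and -0.09.

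**Figure D3:**
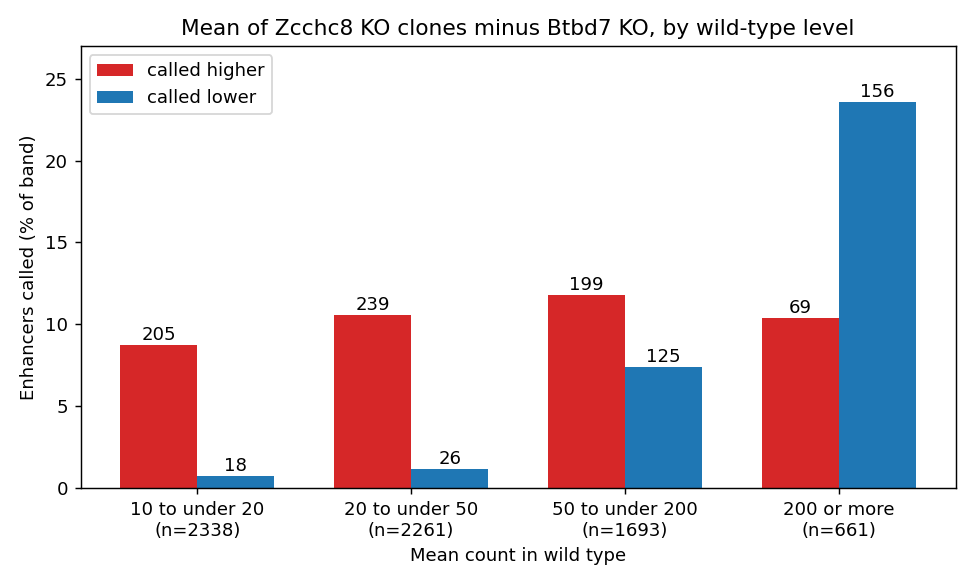
Share of enhancers called higher or lower in the mean of the Zcchc8 KO clones against Btbd7 KO (gene-table scaling), in percent of each band of wild-type mean count, with the number called above each bar. The share called higher stays between 8.77% and 11.8%, and the share called lower climbs from 0.77% to 23.6%; with scaling within the enhancer table, over all bands, 422 were higher and 801 lower.

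The 5 enhancers with the highest wild-type level were lower in the Zcchc8 KO clones than in Btbd7 KO in 27 alternatives. The test with cell lines as replicates was not recorded for single enhancers. In ENSMUSR00000685344, the highest, wild type held 412, 372 and 373 CPM and Btbd7 KO 411, 386, 397 and 391 CPM, whereas clone 1 held 254, 292, 237 and 242, clone 2 336, 321, 342 and 323 and clone 3 245, 236, 233 and 259 CPM. Every Zcchc8 KO library lay below all 7 controls, and clone 2 was the nearest to them. The log2 fold change against Btbd7 KO was -0.53 ± 0.05 (SE, edgeR adjusted p = 1.31e-19), and it was -0.63, -0.26 and -0.70 in clones 1, 2 and 3. ENSMUSR00000607477 held 339, 339 and 343 CPM in wild type, 364, 363, 366 and 372 in Btbd7 KO, 276, 292, 298 and 298 in clone 1, 291, 280.2, 274 and 310.3 in clone 2 and 297, 280.0, 291 and 309 in clone 3. Here too no Zcchc8 KO library reached a control, and a difference among the clones did not pass the test (log2 fold change -0.33 ± 0.05, edgeR adjusted p = 3.75e-08; adjusted p among clones 0.989). ENSMUSR00000708767 (-0.35), ENSMUSR00000422209 (-0.34) and ENSMUSR00000555971 (-0.43) completed the 5. Their Btbd7 KO means were 417, 339 and 265 CPM, and their clone means ran from 294 to 349, 233 to 288 and 169 to 215 CPM. In the first and second of these the Zcchc8 KO libraries were below all Btbd7 KO libraries but overlapped wild type, and in the third they overlapped both.

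The largest rises took enhancers from group means of 0.252 to 1.20 CPM in the controls to 6.15 to 29.8 CPM in the clones. The 6 named here are those with the largest log2 fold change against Btbd7 KO among enhancers with a mean of at least 50 counts over the 19 libraries and the same direction in each clone. They reached that mean through the Zcchc8 KO libraries in which they are high, so their size, p-values and lack of overlap with the controls are a description. ENSMUSR00000711552 held 0.520, 1.11 and 0.704 CPM in wild type and 1.14, 0.862, 2.60 and 0.170 in Btbd7 KO, against 31.1, 30.6, 26.0 and 31.6 in clone 1, 16.8, 19.5, 19.6 and 16.2 in clone 2 and 21.2, 19.4, 21.0 and 26.8 in clone 3. The 7 controls and the 12 Zcchc8 KO libraries did not overlap, and clone 1 was the highest (log2 fold change 4.38 ± 0.19, edgeR adjusted p = 1.21e-73; adjusted p for a difference among clones 0.000712).

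ENSMUSR00000537738 held 1.21, 0.444 and 0.762 CPM in wild type, 0.959, 0.862, 0.496 and 0.593 in Btbd7 KO, 17.3, 17.1, 17.2 and 21.2 in clone 1, 17.6, 15.7, 12.9 and 11.2 in clone 2 and 14.8, 11.5, 22.2 and 16.9 in clone 3. Again no library of the clones overlapped a control, and the clones overlapped each other (log2 fold change 4.38 ± 0.21, edgeR adjusted p = 6.79e-63). ENSMUSR00000337610 held 0.751, 1.63 and 1.11 CPM in wild type, 1.02, 1.26, 1.86 and 0.339 in Btbd7 KO, 24.8, 19.8, 18.2 and 16.6 in clone 1, 15.7, 14.1, 9.26 and 13.7 in clone 2 and 15.8, 16.2, 10.7 and 13.9 in clone 3. The groups were again apart, with clone 1 at the top (log2 fold change 3.83 ± 0.20, edgeR adjusted p = 1.04e-54; adjusted p among clones 0.0249).

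A pair with near identifiers rose alike. ENSMUSR00000698268 held 1.27, 0.518 and 0.411 CPM in wild type, 0.539, 0.332, 0.868 and 0.509 in Btbd7 KO, 12.1, 11.4, 11.2 and 11.6 in clone 1, 10.8, 9.69, 8.34 and 9.71 in clone 2 and 10.5, 11.4, 10.1 and 11.1 in clone 3. ENSMUSR00000698265 held 0.808, 0.518 and 0.938 CPM in wild type, 0.839, 0.332, 0 and 0.170 in Btbd7 KO, 8.54, 9.10, 5.40 and 6.84 in clone 1, 5.41, 6.60, 7.54 and 7.42 in clone 2 and 8.98, 7.32, 7.80 and 4.26 in clone 3. In both, controls and clones were apart. In the first, every clone 1 library lay above every clone 2 library, and in the second the clones overlapped each other. In neither did a difference among the clones pass the test (edgeR adjusted p among clones 0.849 and 0.980). The log2 fold changes were 4.30 ± 0.25 (edgeR adjusted p = 7.95e-47) and 4.14 ± 0.31 (edgeR adjusted p = 3.77e-32). The second rests on very few control reads: replicate 3 of Btbd7 KO held none, which allows up to 0.372 CPM, and without replicate 1 of Btbd7 KO the log2 fold change was 5.10.

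ENSMUSR00000650688 had the largest log2 fold change against Btbd7 KO, 4.96 ± 0.33 (edgeR adjusted p = 5.04e-39), and was low in Btbd7 KO itself. It held 1.04, 0.814 and 1.76 CPM in wild type, 0.180, 0.332, 0.496 and 0 in Btbd7 KO, 4.21, 6.52, 5.98 and 7.87 in clone 1, 8.75, 6.39, 6.79 and 8.18 in clone 2 and 7.00, 10.7, 10.5 and 9.94 in clone 3. The Btbd7 KO libraries were all below the wild-type ones (difference -2.33 ± 0.44, edgeR adjusted p = 0.000175), and the 0 of replicate 4 allows up to 0.254 CPM. Against wild type the clones differed by 2.32, 2.60 and 2.95.

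The deepest falls, chosen by the same rule in the other direction, were in part those of 1 clone. They were picked for the size of the fall, and the mean of at least 50 counts includes the controls in which they are high. Their size, p-values and lack of overlap with the controls are thus a description. ENSMUSR00000585110 held 62.2, 74.0 and 75 CPM in wild type, 91.5, 89.0, 86.2 and 97.0 in Btbd7 KO, 37.7, 50.4, 43.0 and 43.4 in clone 1, 32.4, 35.7, 34.3 and 30.7 in clone 2 and 52.6, 47.7, 50.4 and 55.8 in clone 3. All 12 Zcchc8 KO libraries were below the 7 controls, clone 2 the lowest (log2 fold change -1.11 ± 0.08, edgeR adjusted p = 7.88e-37; -1.06, -1.45 and -0.81 by clone). ENSMUSR00000585036 held 8.20, 5.62 and 5.92 CPM in wild type, 10.2, 9.88, 8.93 and 8.48 in Btbd7 KO, 3.68, 5.03, 3.21 and 6.58 in clone 1, 3.75, 3.52, 4.08 and 2.98 in clone 2 and 4.31, 2.15, 2.69 and 2.91 in clone 3. Every clone was below Btbd7 KO, and clone 1 overlapped wild type (change against Btbd7 KO -1.34 ± 0.17, edgeR adjusted p = 1.25e-11).

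In the other pair a single clone carried most of the fall. ENSMUSR00000483550 held 3.75, 6.66 and 5.16 CPM in wild type, 8.51, 8.16, 8.93 and 9.49 in Btbd7 KO, 2.89, 7.47, 3.94 and 2.07 in clone 1, 0.833, 0.574, 0.575 and 0.902 in clone 2 and 6.08, 8.71, 8.82 and 9.47 in clone 3. Clone 2 was far below every other library, and clone 3 overlapped Btbd7 KO. Its mean log2 fold change of -1.60 ± 0.19 (edgeR adjusted p = 1.66e-14) was made up of -1.10 in clone 1, -3.62 in clone 2 and -0.09 in clone 3, the last with an adjusted p of 0.899. In ENSMUSR00000720534 clone 1 stood alone: it held 0.789, 2.04, 1.17 and 1.55 CPM, against 5.08, 5.47 and 6.39 in wild type, 7.73, 7.63, 9.42 and 9.83 in Btbd7 KO, 5.55, 5.60, 6.27 and 5.55 in clone 2 and 6.29, 11.4, 4.73 and 5.07 in clone 3. The mean of -1.18 ± 0.18 (edgeR adjusted p = 7.83e-09) held -2.63 in clone 1, and the values in clone 2 (-0.58, adjusted p = 0.064) and clone 3 (-0.35, adjusted p = 0.396) did not pass the test.

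The 3 clones differed from each other in 357 of the 6953 enhancers (5.13%, against 3.37% of all tested), by edgeR's test with 2 degrees of freedom, which the choice of enhancers did not use. Clone 1 was the highest of the clones in 116 of them, clone 2 in 127 and clone 3 in 114, and clone 2 was the lowest in 142, clone 1 in 118 and clone 3 in 97. No clone was thus the high or the low one throughout. The median span between the highest and the lowest clone was 0.95 on the log2 scale, and 152 of the 357 were also called for the mean of the clones against Btbd7 KO. Of the 712 rises 83 (11.7%) and of the 325 falls 69 (21.2%) were among the 357.

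The strongest of these differences, named by the lowest p, took several forms. The 4 were picked by this test, from enhancers whose mean of at least 50 counts includes the clones. Their p-values among clones and lack of overlap are thus a description. ENSMUSR00000625738 held 51.4, 52.2, 49.6 and 48.5 CPM in clone 1, 7.36, 8.97, 8.75 and 8.11 in clone 2 and 13.1, 15.9, 18.7 and 17 in clone 3, against 3.12, 1.70 and 3.52 in wild type and 2.58, 2.92, 2.23 and 3.56 in Btbd7 KO. All clones exceeded the controls without overlap, and clone 1 exceeded the other clones (edgeR adjusted p among clones = 4.09e-51; log2 fold changes against Btbd7 KO of 4.14, 1.55 and 2.50). ENSMUSR00000587763 held 95.5, 93.6, 92.6 and 88.7 CPM in clone 1, 31.1, 37.3, 32.4 and 41.5 in clone 2 and 45.3, 54.3, 49.9 and 50.2 in clone 3, against 7.62, 5.10 and 5.45 in wild type and 4.68, 5.51, 6.20 and 3.22 in Btbd7 KO. The order was again clone 1, clone 3, clone 2, with no overlap between them (edgeR adjusted p among clones = 5.44e-28; 4.25, 3.36 and 2.88 against Btbd7 KO in that order).

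ENSMUSR00000596866 split the clones, with clone 3 beside the negative control. It held 44.8, 47.1 and 46.3 CPM in wild type, 25.7, 25.2, 24.1 and 23.8 in Btbd7 KO, 80.8, 66.4, 49.8 and 55.2 in clone 1, 77.5, 75.7, 81.6 and 80.4 in clone 2 and 23.5, 25, 28.1 and 25.5 in clone 3. Clones 1 and 2 were above wild type, and clone 3 overlapped Btbd7 KO well below it (edgeR adjusted p among clones = 2.86e-38; log2 fold changes against wild type of 0.45, 0.77 and -0.85 in clones 1, 2 and 3 and -0.90 in Btbd7 KO). ENSMUSR00000483549 carries the identifier next to ENSMUSR00000483550 and showed the same order of the clone means. Clone 2 held 0.555, 0.933, 1.09 and 1.11 CPM, against 7.56, 9.17 and 5.98 in wild type, 9.59, 11.6, 10.4 and 13.6 in Btbd7 KO, 6.44, 5.43, 10.4 and 8.52 in clone 1 and 12.2, 10.4, 13.9 and 12.2 in clone 3. Clone 2 was apart from every other library (edgeR adjusted p among clones = 9.37e-38).

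**Figure D4:**
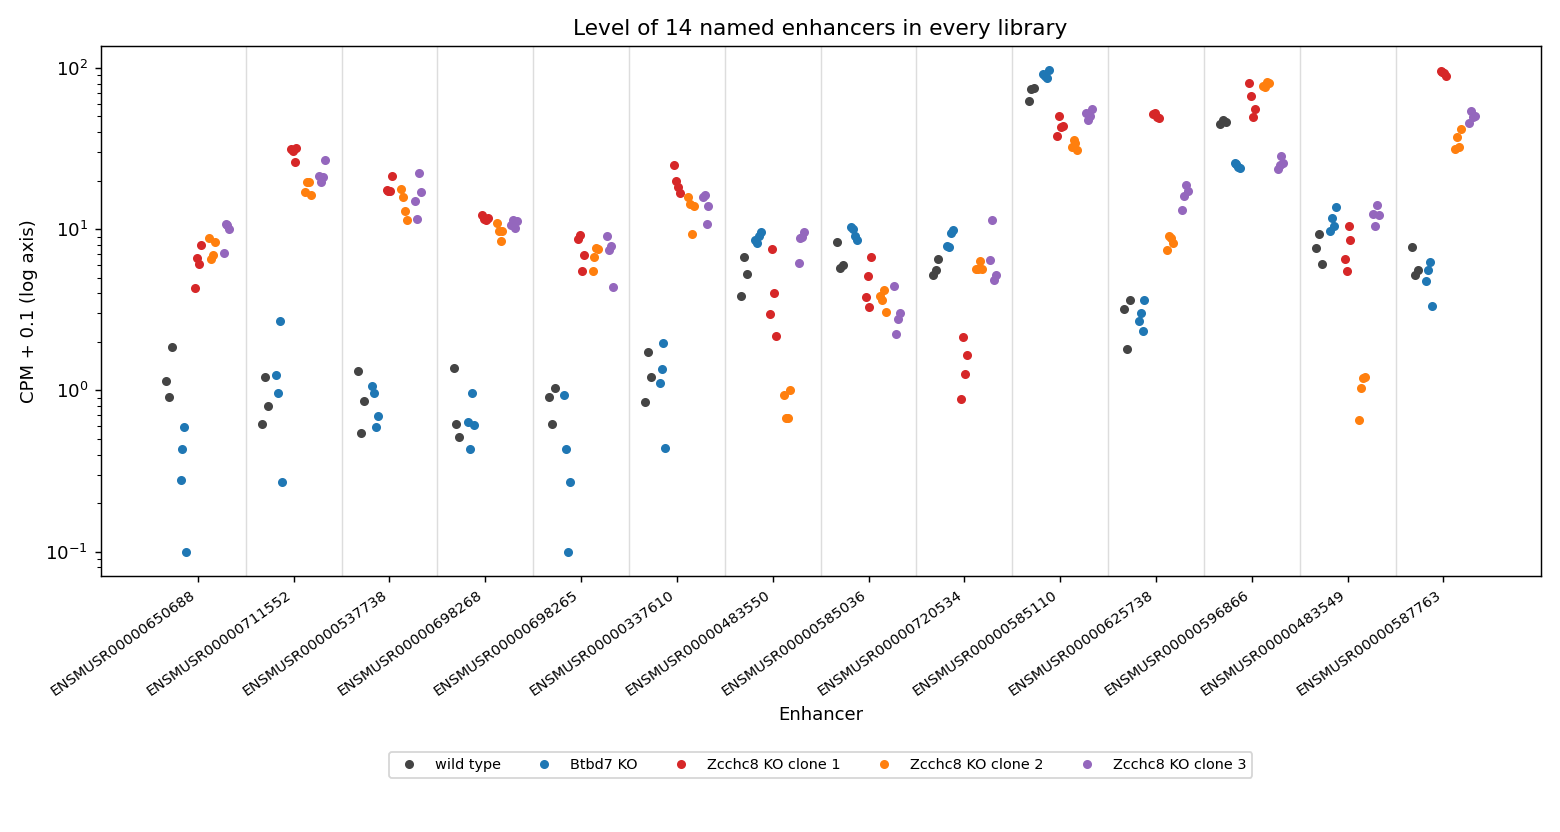
Level of 14 named enhancers in every library, as CPM + 0.1 on a log axis, 1 point a library, coloured by group. From left to right are the 6 largest rises, the 4 deepest falls and the 4 strongest differences among clones. All were taken from enhancers with a mean of at least 50 counts, the rises and falls also with the same direction in each clone. In the 6 rises every Zcchc8 KO library lies above all 7 controls. In ENSMUSR00000483550, ENSMUSR00000483549 and ENSMUSR00000720534 the libraries of 1 clone lie below every other library.

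3 of the 6953 enhancers had no read in any of the 4 clone 1 libraries, and they were chosen after their values were seen. A total of 0 allows up to 3 reads over the group. ENSMUSR00000480010 held 10 to 20 reads per wild-type library, 0 to 11 in Btbd7 KO, 21 to 54 in clone 2 and 3 to 8 in clone 3. Clone 2 was the highest line there, and clone 1 differed from Btbd7 KO (edgeR adjusted p = 0.00250). ENSMUSR00000690451 and ENSMUSR00000598540 held few reads in all edited lines (totals of 11 and 5 in Btbd7 KO, 11 and 13 in clone 2, 17 and 3 in clone 3) and 33 and 30 in wild type. In neither did the difference of clone 1 from Btbd7 KO pass the test (edgeR adjusted p = 0.118 and 0.379).

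Against wild type, whose counts chose the enhancers, each single clone gave fewer calls and a lower median than against Btbd7 KO. The medians against Btbd7 KO were 0.11, 0.15 and 0.17 in clones 1, 2 and 3. Wild type has 3 libraries and Btbd7 KO 4, and the part of this in the number of calls was not tested. Clone 1 had 310 enhancers higher and 211 lower (4.46% and 3.03%, against 5.6% and 1.75% of all tested), with a median log2 fold change of -0.04. Clone 2 had 244 higher and 154 lower (3.51% and 2.21%, against 4.99% and 1.26%), with a median of 0.00. Clone 3 had 271 higher and 112 lower (3.90% and 1.61%, against 5% and 0.897%), with a median of 0.01. These comparisons share the 3 wild-type libraries, and because the enhancers were taken for their reads in those libraries the counts are read as a description. With scaling within the enhancer table the calls were 248 higher and 330 lower in clone 1, 181 and 260 in clone 2, and 217 and 261 in clone 3, so that falls outnumbered rises there. The medians fell with the wild-type level in each clone, from 0.02, 0.09 and 0.12 in the lowest band to -0.12, -0.10 and -0.09 in the highest. Against Btbd7 KO, single clones gave 573 higher and 315 lower in clone 1 (against a background of 7.94% and 2.63%), 579 and 249 in clone 2 (8.34% and 2.13%) and 555 and 186 in clone 3 (7.64% and 1.55%), which were 8.24% and 4.53%, 8.33% and 3.58%, and 7.98% and 2.68% of the 6953. These share the 4 Btbd7 KO libraries.

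Few enhancers were called in the negative control against wild type. In Btbd7 KO, 29 enhancers were called higher and 45 lower (0.417% and 0.647%, against 0.318% and 0.373% of all tested). The median log2 fold change was -0.15, and it went from -0.23 in the lowest band of wild-type level to -0.02 in the highest. Since low wild-type counts had to reach a mean of 10 to enter, this slope and the choice of enhancers cannot be told apart. When scaled within the enhancer table, the calls were 45 higher and 20 lower. Without replicate 2 of Btbd7 KO 18 were higher and 22 lower, and the number higher was also 18 without replicate 2 of wild type or replicate 1 of Btbd7 KO and 19 without replicate 4 of either line.

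The largest differences of Btbd7 KO from wild type among enhancers with at least 50 counts on average were as follows. ENSMUSR00000645531 held 4.68, 5.92 and 3.87 CPM in wild type and 13.3, 13.3, 10.9 and 9.92 in Btbd7 KO, without overlap (log2 fold change 1.31 ± 0.21, edgeR adjusted p = 1.12e-06), and clones 1 and 2 were also high, at 10.2 and 8.60 CPM, while clone 3 lay at 4.38 CPM. ENSMUSR00000715395 held 4.39, 1.70 and 1.35 CPM in wild type and 5.03, 6.17, 5.46 and 4.49 in Btbd7 KO, without overlap although the highest wild-type library came near (1.08 ± 0.28, edgeR adjusted p = 0.0254). All clones were near the Btbd7 KO level, at 4.44 to 4.92 CPM. Of the falls, ENSMUSR00000650688 is described above, and ENSMUSR00000574190 held 7.22, 7.62 and 6.69 CPM in wild type, 1.74, 1.86, 3.84 and 2.54 in Btbd7 KO and means of 3.65, 6.0 and 6.22 CPM in clones 1, 2 and 3 (-1.58 ± 0.26, edgeR adjusted p = 4.33e-06). The clones and Btbd7 KO are set against the same 3 wild-type libraries here, whose counts also chose the enhancers.

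Enhancers next in number to a called enhancer were called the same way at a higher share than the 6953 as a whole. Among the 6953 there were 1042 pairs with consecutive identifier numbers. Of the 712 rises 187 had a next-numbered neighbour among the 6953, and of the 325 falls 100 had one. A neighbour is counted once for each called enhancer it stands beside. Of the 207 next-numbered neighbours of enhancers that rose against Btbd7 KO, 94 (45.4%) rose too, beside 10.2% of all 6953. Of the 117 neighbours of enhancers that fell, 28 (23.9%) fell too, beside 4.67% of all. ENSMUSR00000483549 and ENSMUSR00000483550 are such a pair. Consecutive numbers do not by themselves show that 2 enhancers lie side by side, and whether neighbours share a transcript was not tested. The enhancers of such a pair may not be separate measurements, so the counts of rises and falls are counts of identifiers.

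At the threshold, the enhancers just inside and just outside held nearly the same reads. ENSMUSR00000003044 and ENSMUSR00000004056, at a wild-type mean of 10 counts, held 0.222 to 0.938 and 0.117 to 1.27 CPM in the wild-type libraries. ENSMUSR00000022909 and ENSMUSR00000048170, at 9.67 counts, held 0.0577 to 1.47 and 0.176 to 0.962 CPM. Single wild-type libraries thus differed many times over at this depth, and which of these entered was decided within counting error.

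Below the threshold, 5643 further enhancers had enough reads over the 19 libraries to be tested. There 517 were higher and 19 lower against Btbd7 KO, with a median log2 fold change of 0.44, beside 712 and 325 with a median of 0.13 in the 6953. These entered the test partly through the groups in which they are high, so the difference was not tested and the counts are given as a description. Among other regulatory features with a wild-type mean of at least 10 counts, 1577 of 10885 promoter flanking regions were higher (14.5%, against 14.1% of all tested in that class) and 594 lower (5.46%, against 3.63%), with a median of 0.15. CTCF sites gave 443 higher and 329 lower of 8635 (5.13% and 3.81%, against 5.85% and 1.79%), with a median of 0.10. Open chromatin regions gave 238 higher and 195 lower of 5403 (4.40% and 3.61%, against 4.98% and 1.68%), with a median of 0.08. In share of rises the transcribed enhancers thus stood between promoter flanking regions and CTCF sites. The same order held over all regions tested (14.1% in promoter flanking regions, 9.76% in enhancers and 5.85% in CTCF sites). It was thus not particular to regions with a wild-type mean of at least 10 counts. The difference between classes was not tested.

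**Figure D5:**
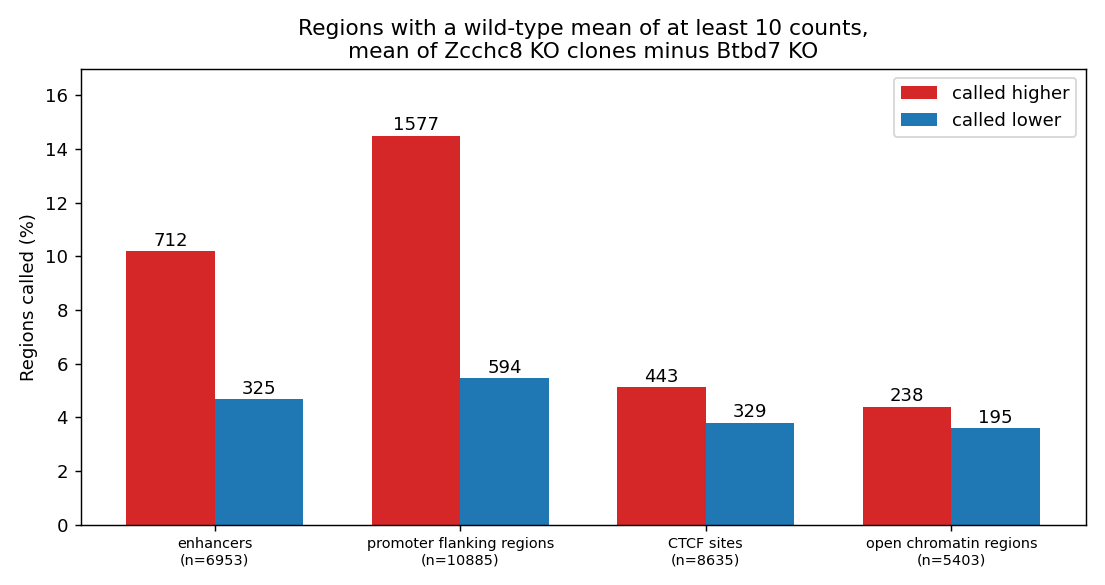
Share of regions with a wild-type mean of at least 10 counts called higher or lower in the mean of the Zcchc8 KO clones against Btbd7 KO (gene-table scaling), in percent of each class, with the number called above each bar. Enhancers (10.2% higher, 4.67% lower) stand between promoter flanking regions (14.5% and 5.46%) and CTCF sites (5.13% and 3.81%); with scaling within the enhancer table the enhancer calls were 422 higher and 801 lower.

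Among genes of the decay machinery itself, falls outnumbered rises in the clones. Of 15 genes for NEXT and the nuclear exosome other than Zcchc8 (Rbm7, Mtrex, Exosc1 to Exosc10, Dis3, C1d and Mphosph6), 14 could be tested. Against Btbd7 KO none rose and 7 fell in the mean of the clones, with a median log2 fold change of -0.19, beside 0.01 over all 17120 genes tested, of which 21.8% were called higher and 23.1% lower. By single line, Exosc2, an exosome core subunit, was higher in clone 1 (0.28 against Btbd7 KO, edgeR adjusted p = 0.0407, and 0.32 against wild type, adjusted p = 0.0323). In clone 2 Exosc2 was lower (-0.38 against Btbd7 KO, edgeR adjusted p = 0.00498, and -0.34 against wild type, adjusted p = 0.0224). Exosc1, another core subunit, was higher in Btbd7 KO than in wild type (0.29, edgeR adjusted p = 0.0137). Exosc6, of the same core, is listed at 0 reads in every library. Rbm7, the RNA-binding subunit of NEXT, lay at 63.0 ± 3.53 CPM (SD, n = 3) in wild type, 59.8 ± 3.41 in Btbd7 KO and 60.8 ± 3.74, 54.4 ± 2.50 and 56.4 ± 5.98 in clones 1, 2 and 3 (n = 4 each). The groups overlapped, and its log2 fold change against Btbd7 KO was -0.06 ± 0.06 (edgeR adjusted p = 0.466). Against wild type Rbm7 was lower in clone 2 (-0.21, edgeR adjusted p = 0.0397) and did not pass in clones 1 and 3. Mtrex, the helicase of NEXT, was among the 7 that fell (-0.23, edgeR adjusted p = 2.24e-05). By clone, Mtrex fell against Btbd7 KO in clones 1 and 3 (-0.39 and -0.25), and its value in clone 2 did not pass (-0.05, edgeR adjusted p = 0.521).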

How the data were processed

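The values are raw counts, whole numbers of reads in each gene or regulatory feature, as the authors deposited them. STAR 2.7.3a and FastQC are named in the submitters' processing notes. Libraries were made with a stranded total RNA kit, per the labels' protocols; the counting tool, its strand setting and the build are not given in the sources used here. Libraries were grouped by their titles.

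The 6953 enhancers had a mean of at least 10 deposited counts over wild-type replicates 2 to 4. One edgeR 4.0.16 fit (R 4.3.3; glmQLFit and glmQLFTest) covered the whole enhancer table, 19 libraries in 5 groups, after a filter of at least 2 counts on average over the 19 libraries, which kept 12596 enhancers and all 6953. Library sizes and TMM factors (0.965 to 1.03) were those of the gene table, since scaling inside a class sets a change common to that class to 0. P-values were Benjamini-Hochberg adjusted over the 12596, and calls were made at 0.05. The contrasts were each clone and Btbd7 KO minus wild type, the mean of the clones and each clone minus Btbd7 KO, and a test with 2 degrees of freedom among the clones. Other classes of feature and the genes were fitted the same way. The tests were checked on simulated counts.

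Named enhancers were the 5 highest in wild type; among those with a mean of at least 50 counts, the 6 largest rises and 4 deepest falls against Btbd7 KO with 1 sign in each clone, the 4 lowest p among clones, and the 2 highest and 2 lowest called for Btbd7 KO; and 2 on each side of the threshold. The enhancers, lists and naming rule were chosen with earlier results of these data known. Alternatives were DESeq2 1.42.0 with gene-table size factors, no TMM factors, scaling within the table, filterByExpr, no filter, a mean of at least 10 counts, only the groups compared, a replicate block, wild-type means of at least 20 and 50, leaving out each library, and, added after seeing the data, cell lines as replicates. The depth, 278623 to 712101 enhancer reads per library, limits weak enhancers most. Gene symbols matched 55144 of 55471 gene identifiers.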

Additional observations from a re-analysis of the deposited data

Results flagged for a closer look

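The 3 Zcchc8 KO clones differed from each other in 357 of the 6953 enhancers (edgeR, 2 degrees of freedom), and 14 of the named enhancers were among them. Their Benjamini-Hochberg adjusted p-values from edgeR were 4.09e-51 in ENSMUSR00000625738, 2.86e-38 in ENSMUSR00000596866, 9.37e-38 in ENSMUSR00000483549, 5.44e-28 in ENSMUSR00000587763, 3.40e-25 in ENSMUSR00000483550 and 4.07e-12 in ENSMUSR00000720534. The first 4 of these were named for that difference. Of the 5 highest enhancers in wild type, ENSMUSR00000685344 (edgeR adjusted p = 5.18e-09), ENSMUSR00000555971 (0.000356), ENSMUSR00000422209 (0.000454) and ENSMUSR00000708767 (0.0120) differed among clones, with clone 1 or clone 3 the lowest. So did ENSMUSR00000585110 (edgeR adjusted p = 6.74e-07), ENSMUSR00000645531 (1.42e-06), ENSMUSR00000711552 (0.000712) and ENSMUSR00000337610 (0.0249).

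In 4 of 108 groups of 4 libraries, 1 library lay far from the rest by Dixon's gap ratio, a share that chance reaches, since it picks about 1 in 20 groups. The ratio was 0.943 for ENSMUSR00000537738 in clone 1 (the highest library, at 21.2 CPM), 0.958 for ENSMUSR00000003044 in clone 1 (the highest, at 0.875 CPM), 0.93 for ENSMUSR00000720534 in clone 2 (the highest, at 6.27 CPM) and 0.86 for ENSMUSR00000422209 in clone 3 (the lowest, at 202 CPM).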

How the results depend on the processing

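In the order clone 1, clone 2, clone 3 and Btbd7 KO, each against wild type, then the mean of the clones against Btbd7 KO, the following values moved. Scaling within the enhancer table gave 330, 260, 261, 20 and 801 enhancers called lower, and 45 higher for Btbd7 KO and 422 for the mean. The medians became -0.144, -0.111, -0.121, -0.048 and -0.0879, and those of the 4 bands from low to high wild-type level 0.07, -0.0163, -0.19 and -0.32. Without TMM factors the medians were 0.0633 for clone 2, 0.082 for clone 3 and 0.19 for the mean, and 0.35, 0.26, 0.10 and -0.0381 in the bands. Without a filter, 29 were lower in Btbd7 KO. With only the groups compared in the fit, 114 were lower in clone 1 and 93 in clone 2. The cause of these shifts was not tested.

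A wild-type mean of at least 20 counts, which leaves fewer enhancers, gave 162 and 180 higher in clones 2 and 3 and a median of 0.0735 for the mean. At 50 counts, 113, 73, 79 and 268 were higher in clones 1, 2 and 3 and the mean, and the medians were -0.0919, -0.067, -0.0536, -0.0773 and -0.0106. With cell lines as replicates, added after seeing the data, 264 were higher and 52 lower, beside 748 and 311 at an unadjusted p under 0.05. DESeq2 gave 805 and 301.

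Leaving out 1 library at a time gave 538 to 792 higher and 237 to 341 lower for the mean, with a median of 0.11 to 0.17, and 291 to 412 differing among clones. For Btbd7 KO it gave 18 to 31 higher and 22 to 50 lower, with a median of -0.17 to -0.10. Against wild type, clone 1 had 270 to 319 higher and 162 to 214 lower (median -0.0742 to 0.0163), clone 2 had 194 to 256 and 109 to 159 (-0.03 to 0.04), and clone 3 had 232 to 284 and 82 to 123 (-0.01 to 0.06). The bands' medians ran from 0.25 to 0.34, 0.18 to 0.25, 0.02 to 0.05 and -0.10 to -0.09. Of 26 named enhancers, the 21 called against Btbd7 KO kept call and sign in the 27 alternatives recorded for them (largest adjusted p = 0.0024, edgeR or DESeq2). Cell lines as replicates was not among the 27.

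Replicate numbers did not pair the libraries: same-numbered libraries of different groups correlated at -0.06 to 0.12 in their deviations from the group means (36 pairs, 1 over 0.1), and 4 of 19 libraries correlated best with their own number. A replicate block gave 708 higher and 328 lower for the mean.

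Weak enhancers limit the results: at a wild-type mean under 20 counts the smallest change called was 0.90 on the log2 scale.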
